A study of Mus musculus with 768 samples.

Results

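The integrin subunits described here were 10 genes taken by their symbols, of 24490 endogenous genes in the tables: the alpha subunits Itga1, Itga4, Itga5, Itga7, Itga8, Itga11 and Itgav and the beta subunits Itgb1, Itgb3 and Itgb5. Their transcripts were read by Smart-seq2, a full-length single cell RNA-seq protocol, in 768 wells of 1 cell each from mammary tumors of 14-week-old FVB/N-Tg(MMTVPyVT)634Mul/J mice, in which the mouse mammary tumor virus promoter drives the polyoma middle T oncogene in the mammary epithelium. Live cells negative for EpCAM, CD45, CD31 and NG2 had been sorted, a choice by absence that keeps any cell lacking those 4 proteins. All wells belong to 1 group with no second genotype or treatment, and each of the 2 tumors filled 1 plate, so that tumor and plate cannot be told apart. The tumor was the replicate (n = 2), and wells of a tumor were not.

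Integrins are heterodimers of an alpha and a beta subunit that bind matrix outside the cell and, through talin, kindlin and other adaptors, the actin cytoskeleton inside it. The beta subunit Itgb1 can pair with all 7 alpha subunits listed, while Itgav also pairs with Itgb3 and Itgb5, so the alpha subunit largely sets the ligand. Itga1 and Itga11 give collagen receptors, Itga7 a laminin receptor best known from muscle, Itga5 the classical fibronectin receptor, Itga4 a receptor of Vcam1 and fibronectin, Itga8 a receptor of nephronectin, and Itgav receptors of vitronectin and other proteins with an RGD motif. Fibroblasts and the mural cells of vessels are known for different sets of these subunits.

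In GRCm38.p6, the RefSeq assembly that corresponds to mm10, Itga1 lies on the minus strand at chr13:114958079-115101964, Itga7 on the plus strand at chr10:128933421-128958286, and Itga11 on the plus strand at chr9:62677855-62783979. Itga4 and Itgav lie on the plus strand of chromosome 2, at chr2:79255426-79333114 and chr2:83722303-83806917, and Itga8 on its minus strand at chr2:12106632-12301985. Itga5 is at chr15:103344286-103366791 on the minus strand. Itgb1 is at chr8:128685654-128733579, Itgb3 at chr11:104608000-104670476 and Itgb5 at chr16:33829665-33949338, all on the plus strand. The kit did not mark strand. In GENCODE, Itga8 shared 372 of its 5812 exon bases with the antisense gene E030013I19Rik, Itga1 shared 451 of 10967 with Gm49395, Itga4 shared 127 of 9767 with Cerkl on the other strand, and Itga7 shared 9 of 4145 with Mettl7b, so reads in those stretches cannot be assigned to a gene.

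The 250 bases before the RefSeq start site are shown, 5′ to 3′ along the gene, for 4 alpha subunits with a window in the RefSeq table. Their levels did not overlap between 2 classes of cells described further on, Dcn-high and Rgs5-high. Of these 4 differences, only that of Itga4 passed the main test given there. The windows lie at chr13:115101965-115102214 (Itga1, minus strand), chr2:79255176-79255425 (Itga4, plus), chr15:103366792-103367041 (Itga5, minus) and chr9:62677605-62677854 (Itga11, plus), in GRCm38.p6. Capitals mark the GC box GGGCGG on either strand.
Itga1: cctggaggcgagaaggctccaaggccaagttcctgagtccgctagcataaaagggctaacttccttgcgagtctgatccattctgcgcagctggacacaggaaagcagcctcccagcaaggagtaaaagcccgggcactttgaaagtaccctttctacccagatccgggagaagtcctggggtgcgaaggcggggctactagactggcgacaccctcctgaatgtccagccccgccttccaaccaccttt
Itga4: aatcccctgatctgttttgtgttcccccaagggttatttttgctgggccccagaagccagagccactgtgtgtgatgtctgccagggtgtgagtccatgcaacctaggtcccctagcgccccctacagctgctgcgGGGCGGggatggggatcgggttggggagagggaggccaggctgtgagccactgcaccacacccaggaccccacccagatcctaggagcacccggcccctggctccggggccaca
Itga5: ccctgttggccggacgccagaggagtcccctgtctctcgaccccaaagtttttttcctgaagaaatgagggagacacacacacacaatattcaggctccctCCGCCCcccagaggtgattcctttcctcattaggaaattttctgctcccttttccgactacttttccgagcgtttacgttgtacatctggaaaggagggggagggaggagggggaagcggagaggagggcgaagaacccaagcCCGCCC
Itga11: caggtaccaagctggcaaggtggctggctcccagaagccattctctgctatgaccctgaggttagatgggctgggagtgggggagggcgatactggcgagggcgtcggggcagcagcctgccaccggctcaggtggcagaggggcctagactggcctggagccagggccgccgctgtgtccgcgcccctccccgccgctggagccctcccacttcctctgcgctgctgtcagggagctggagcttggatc
The GC content of the windows was 57.6%, 64.0%, 55.6% and 68.4% of bases, above a median of 52.4% over 32851 promoter windows, whose spread was not computed. Itga4 held 1 GC box and Itga5 held 2, and 32.7% of all windows held at least 1. None of the 4 windows held TATAAA (12.4% of all windows), TGGGAA, the core bound by RBPJ (21.6%), GGAATG, the core bound by TEAD factors (12.6%), or a CArG box, the site of serum response factor (1.47%), all searched on both strands. A window was matched for 8 of the 10 members, and Itga7 and Itgb3 were without one.

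A total of 727 wells had at least 10000 non-ERCC reads and were used. A well was assigned to the class of its highest marker, Rgs5 (vascular mural cells), Dcn (matrix-producing fibroblasts) or the higher of Mia and Scrg1, where log2(RPKM + 1) of that marker was at least 6 and at least 1 above the next. This gave 504 Rgs5-high wells (263 and 241 of tumors 1 and 2), 167 Dcn-high wells (84 and 83) and 24 Mia/Scrg1-high wells (8 and 16), and left 8 mixed and 24 low wells. No integrin was used in this rule. Of all used wells, 13 had a highest score between 5 and 7 and 15 had a margin under 2 over the next score. Median depth was 198957, 247671 and 236085 non-ERCC reads per well in the 3 classes, and the ERCC spike-ins took a median of 13.5%, 6.23% and 6.13% of the reads.

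On the log2(RPKM + 1) scale Notch3 averaged 6.12 and 5.99 in Rgs5-high wells of tumors 1 and 2 and at or below 1.55 in the other classes. Pdgfra was at 6.04 and 5.04 in Dcn-high wells and at or below 0.824 elsewhere, and Sox10 was at 6.21 and 5.02 in Mia/Scrg1-high wells. The 6 matrix markers together had a median summed RPKM of 681 and 684 in Mia/Scrg1-high wells, where 23 of 24 wells had a read, beside 7447 and 6132 in Dcn-high and 8.70 and 9.01 in Rgs5-high wells. Desmin (Des) and Myh11, which smooth muscle cells and pericytes also express, were at 6.67 and 5.40 and at 3.57 and 2.81 in Rgs5-high wells. Of 6 epithelial markers, at least 1 had a read in 94 of 504 Rgs5-high, 55 of 167 Dcn-high and 20 of 24 Mia/Scrg1-high wells, although EpCAM-positive cells had been sorted away. The summed RPKM of these 6 had a median of 0 in both Rgs5-high and both Dcn-high sets and of 66.4 and 29.7 in the Mia/Scrg1-high wells, with ranges of 0 to 5305 and 0 to 3407. All 6 had reads in tumor 1, and Krt14 was at 0 reads in the 16 Mia/Scrg1-high wells of tumor 2. The part of the epithelial and glial markers in the results on this class was not tested. For the members called in its comparisons, results without the wells with any epithelial read are given below.

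Rgs5-high cells were led by Itga1 and Itga7, Dcn-high cells carried a mixture of Itgav, Itga1, Itga5 and Itga11, and Mia/Scrg1-high cells had Itgav as the main alpha subunit among the 7. Itgb1 was the most abundant member in all 3 classes and both tumors by mean RPKM. Itgb5 was highest in Dcn-high cells, where its share came closest to that of Itgb1. These levels were read per length, in RPKM, and are described without a test. Tests of the classes used reads summed per class and tumor, 6 libraries of 2064740 to 55315664 reads, with edgeR over 11683 genes.

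**Figure D1:**
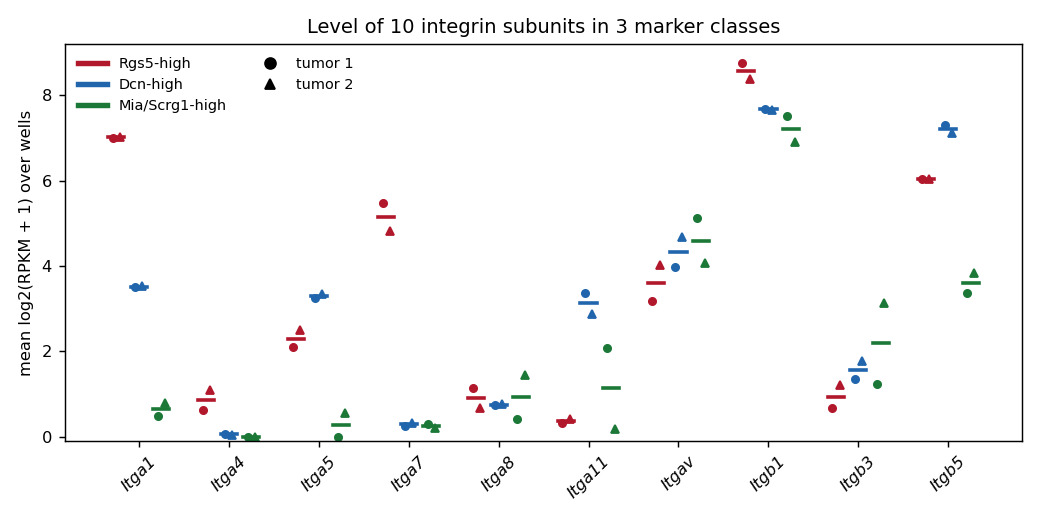
Mean log2(RPKM + 1) of the 10 integrin subunits over the wells of each marker class (color) in tumor 1 (circles) and tumor 2 (triangles), with the mean of both tumors as a line. Itga1 and Itga7 stand highest in Rgs5-high wells and Itga11 and Itgb5 in Dcn-high wells of both tumors, while all Itgav points lie between 3.18 and 5.12.

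Itga1, the collagen receptor subunit, was found in nearly all Rgs5-high wells, in 260 of 263 and 236 of 241. Its mean log2(RPKM + 1) was 7.02 ± 0.02 there (SD, n = 2 tumors), 3.52 ± 0.01 in Dcn-high and 0.65 ± 0.22 in Mia/Scrg1-high wells, and these levels did not overlap between tumors. A read was found in 68 of 84 and 67 of 83 Dcn-high wells, and in 4 of 8 and 8 of 16 Mia/Scrg1-high wells. In the summed libraries Itga1 stood at 1168 and 1294 CPM (reads of a gene scaled to a common library size) in Rgs5-high, 273 and 292 in Dcn-high, and 2.59 and 21.7 in Mia/Scrg1-high cells. Of the 81 Mia/Scrg1-high reads of tumor 2, 70 came from 1 well.

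Itga7, the laminin receptor subunit, had a read in 241 of 263 and 197 of 241 Rgs5-high wells, against 11 of 84 and 14 of 83 Dcn-high wells and 2 of 8 and 1 of 16 Mia/Scrg1-high wells. It stood at 406 and 326 CPM in the Rgs5-high libraries, at 5.14 and 4.68 in the Dcn-high ones and at 0.863 and 2.68 in the Mia/Scrg1-high ones. The Rgs5-high values lay far above all 4 others. Wells with at least 50000 reads were also thinned to that number, which left 256 of 263 and 227 of 241 Rgs5-high and 78 of 84 and 79 of 83 Dcn-high wells. Itga7 then had a read in 88.7% and 80.2% of the Rgs5-high and 5.13% and 5.06% of the Dcn-high wells, beside 91.6% and 81.7%, and 13.1% and 16.9%, of all wells before thinning. Des and Myh11 were also highest in Rgs5-high wells, while Cnn1, another smooth muscle marker, was highest in Mia/Scrg1-high wells at 1.54 and 1.67. The summed RPKM of these 3 had a median of 169 and 102 in Rgs5-high, 0 and 0 in Dcn-high and 1.23 and 1.48 in Mia/Scrg1-high wells, and their part in the Itga7 level was not tested.

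Itga4 and Itga8 were sparse. Itga4 had a read in 50 of 263 and 76 of 241 Rgs5-high wells, in 6 of 84 and 4 of 83 Dcn-high wells and in 0 of 8 and 0 of 16 Mia/Scrg1-high wells, which allows shares of up to 37.5% and 18.8% at a limit of 3 wells and of 36.9% and 20.6% by the exact 95% interval. Its CPM were 33.3 and 70.6 in Rgs5-high and 1.64 and 0.947 in Dcn-high cells. Itga8 had a read in 69 of 263 and 44 of 241 Rgs5-high, 16 of 84 and 17 of 83 Dcn-high, and 1 of 8 and 9 of 16 Mia/Scrg1-high wells. Its levels of 0.92 ± 0.33, 0.75 ± 0.01 and 0.92 ± 0.73 (SD, n = 2) overlapped between the classes, and 1 well gave all 22 of its Mia/Scrg1-high reads in tumor 1.

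Itga11, a receptor subunit for fibrillar collagens, had a read in 62 of 84 and 56 of 83 Dcn-high wells and in 38 of 263 and 37 of 241 Rgs5-high wells. Its CPM were 141 and 139 in Dcn-high against 12.01 and 17.7 in Rgs5-high cells. In Mia/Scrg1-high cells the tumors parted, with 101 CPM in tumor 1, where 3 of 8 wells had a read and 1 well gave 152 of 235 reads, and 0.804 CPM in tumor 2, where 3 of 16 wells had 1 read each.

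Itga5, of the fibronectin receptor, was present in 62 of 84 and 63 of 83 Dcn-high wells and in 128 of 263 and 139 of 241 Rgs5-high wells. Its CPM were 150 and 266 in Dcn-high and 80.7 and 107 in Rgs5-high cells. In Mia/Scrg1-high cells no read was found in the 8 wells of tumor 1 and 19 reads in 5 of 16 wells of tumor 2, that is 0 and 5.09 CPM, below every other library. Itgav, in contrast, was present in all classes, in 76.8% and 85.5% of Rgs5-high, 89.3% and 89.2% of Dcn-high and 8 of 8 and 13 of 16 Mia/Scrg1-high wells. Its CPM ran from 207 to 458, and all 3 classes overlapped: 207 and 292 in Rgs5-high, 280 and 458 in Dcn-high, and 376 and 256 in Mia/Scrg1-high cells.

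Among the beta subunits, Itgb1 had a read in 504 of 504 Rgs5-high, 166 of 167 Dcn-high and 23 of 24 Mia/Scrg1-high wells. Its mean log2(RPKM + 1) was 8.58 ± 0.27 to 7.68 ± 0.01 and 7.22 ± 0.42 (SD, n = 2), and the tumor values of the last pair of classes, 7.69 and 7.67 against 7.51 and 6.92, did not overlap. Itgb1 stood at 2520 and 1925 CPM in Rgs5-high, 1395 and 1298 in Dcn-high, and 1090 and 934 in Mia/Scrg1-high cells. Itgb5, a partner of Itgav in vitronectin binding, was at 458 and 426 CPM in Rgs5-high, 885 and 842 in Dcn-high and 139 and 119 in Mia/Scrg1-high cells, with no overlap between classes. Itgb3 was sparse, with a read in 47 of 263 and 79 of 241 Rgs5-high, 39 of 84 and 38 of 83 Dcn-high, and 2 of 8 and 10 of 16 Mia/Scrg1-high wells. Its 29.8 and 56.1, 40.6 and 79.4, and 53.9 and 206 CPM overlapped between all classes.

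Shares of wells with a read depend on depth, and thinning to 50000 reads, which kept 8 of 8 and 14 of 16 Mia/Scrg1-high wells, lowered several of them. Itga1 went from 81.0% and 80.7% to 70.5% and 73.4% of Dcn-high wells, and from 50.0% in both tumors to 25.0% and 28.6% of Mia/Scrg1-high wells. Itga4 went from 7.14% and 4.82% to 2.56% and 2.53% of Dcn-high wells, and Itga11 from 14.4% and 15.4% to 7.42% and 8.37% of Rgs5-high wells. Itga8 in the Mia/Scrg1-high wells of tumor 2 went from 56.2% to 21.4%. Itgb3 was found in 14.1% and 27.8% of Rgs5-high, 38.5% and 44.3% of Dcn-high, and 25.0% and 71.4% of Mia/Scrg1-high wells after thinning.

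The choice of alpha subunit was then expressed as its share of the summed RPKM of the 7. In Rgs5-high cells Itga1 took 54.6% and 57.0% in tumors 1 and 2 and Itga7 27.7% and 21.3%, leaving 7.85% and 11.6% to Itgav. In Dcn-high cells no subunit took more than 33.1%: Itga1 held 28.6% and 25.4%, Itgav 25.3% and 33.1%, Itga5 20.7% and 24.6%, and Itga11 19.9% and 12.6%. In Mia/Scrg1-high cells Itgav took 65.9% and 70.3%, while Itga11 took 31.9% in tumor 1 and 0.466% in tumor 2, and Itga8 took 1.19% and 18.1%. The beta shares differed too. Itgb1 took 81.1% and 76.2% of the 3 beta subunits in Rgs5-high cells, and in Dcn-high cells 54.4% and 55.4% with Itgb5 at 44.4% and 42.5%.

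**Figure D2:**
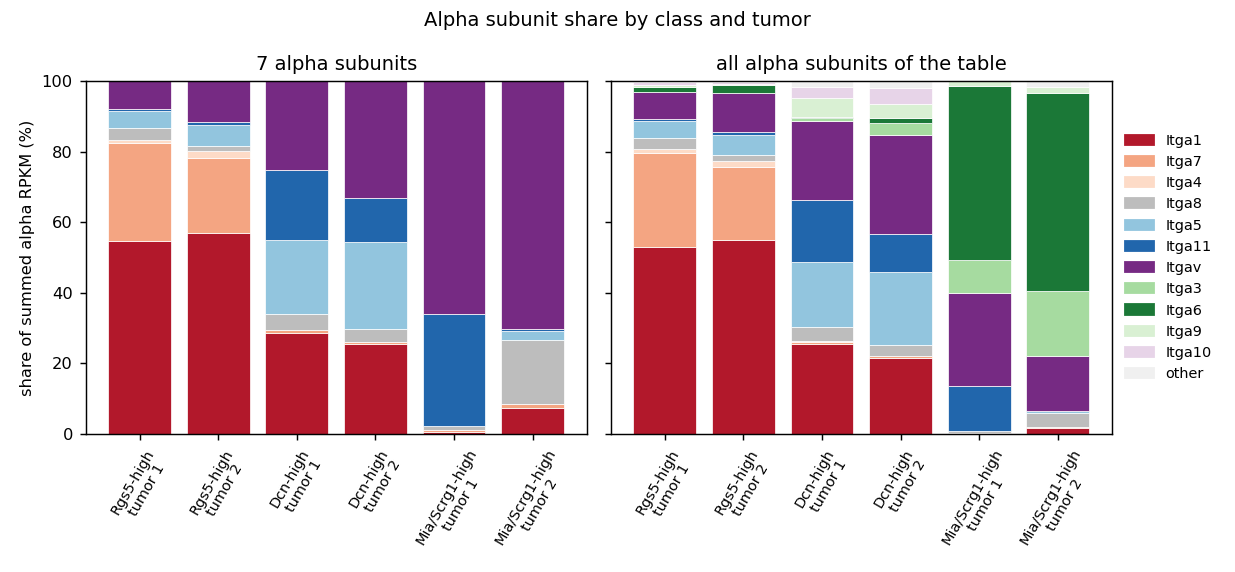
Stacked shares (%) of alpha subunits in the summed RPKM of each class and tumor, over the 7 members (left) and over all alpha subunits of the table (right). Itga1 and Itga7 fill most of the Rgs5-high bars, Dcn-high bars are divided among Itga1, Itga5, Itga11 and Itgav, and Itga6 takes 49.5% and 56.2% of the Mia/Scrg1-high bars once it is counted.

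The same choice was visible in single wells. Itga1 had the highest RPKM of the 7 in 190 of 263 Rgs5-high wells of tumor 1 (72.2%, exact 95% interval 66.4% to 77.6%) and 179 of 241 of tumor 2 (74.3%, 68.3% to 79.7%). Itga7 led in 57 of 263 (21.7%) and 34 of 241 (14.1%). Itga1 and Itga7 were found together in 238 of 263 and 195 of 241 Rgs5-high wells, and 3 and 2 wells had Itga7 without Itga1. The correlation of their log2(RPKM + 1) over those wells was r = 0.24 and 0.28. In Dcn-high wells the lead was divided: Itga1 led in 28 of 84 and 16 of 83, Itgav in 22 of 84 and 40 of 83, Itga5 in 16 and 14, and Itga11 in 16 and 9. The lead of Itgav was 26.2% (17.2% to 36.9%) in tumor 1 and 48.2% (37.1% to 59.4%) in tumor 2, intervals that cover counting error only and do not overlap. Itga11 and Itga1 occurred together in 49 of 84 and 47 of 83 Dcn-high wells, with r = -0.06 and -0.01. In Mia/Scrg1-high wells Itgav led in 7 of 8 and 11 of 16.

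**Figure D3:**
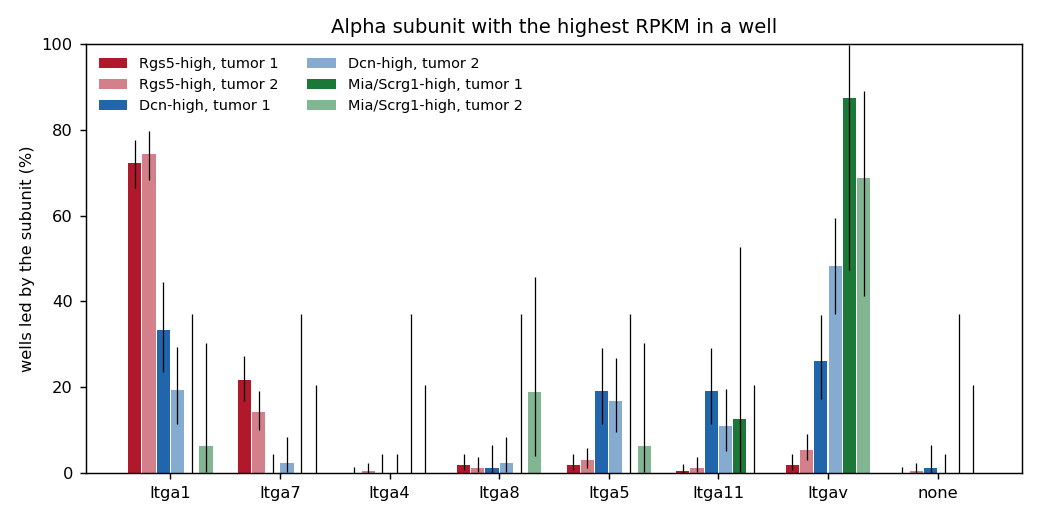
Share of wells (%) in which each of the 7 alpha subunits had the highest RPKM, by class and tumor, with exact 95% binomial intervals; "none" holds wells with no read of any of them. Itga1 leads 72.2% and 74.3% of Rgs5-high wells, and no subunit leads more than 48.2% of Dcn-high wells.

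A well held a mean of 3.76 and 3.88 of the 7 alpha subunits in Rgs5-high, 3.57 and 3.55 in Dcn-high and 2.25 and 2.44 in Mia/Scrg1-high cells, and 3.48 and 3.68, 3.19 and 3.16, and 1.75 and 1.64 in the wells thinned to 50000 reads. The ratio of summed alpha to summed beta RPKM over all integrin genes was 0.513 and 0.660 in Rgs5-high, 0.282 and 0.393 in Dcn-high and 0.704 and 0.635 in Mia/Scrg1-high cells. Dcn-high cells thus had the lowest alpha level per beta level in both tumors.

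In the comparison of Dcn-high with Rgs5-high cells, 2 of the 10 members passed an adjusted p of 0.05 in edgeR, both lower in Dcn-high cells, beside 1.87% of all 11683 genes lower, 3.43% higher and 5.3% in either direction. Itga7 was lower by a log2 fold change of -6.22 ± 0.45 (SE; 74.5-fold), with an adjusted p of 0.00461 and tumor values of -6.30 and -6.10. Itga4 was lower by -5.32 ± 0.78 (adjusted p = 0.0366), and this call was lost with the tumor as a block (adjusted p = 0.107; 1 member called, beside 0.924% of genes lower, 1.92% higher and 2.84% in all) and with ERCC totals as the library size (0.0552). Without the wells with any epithelial read, a setting under which no gene passed in this comparison, the values were -6.18 for Itga7 and -5.69 for Itga4. Other settings added calls: Itgb5 was higher with ERCC totals (1.63; 0.0379) and in DESeq2 (0.96; 2.37e-05), and DESeq2 also called Itgb1 lower (-0.73; 0.0329). Itga1 was lower in classes set by marker panels (-2.16; 0.0152) and without the top well (-2.25; 0.0188). In the order of lower and higher, ERCC totals called 0.865% and 4.82% of all genes, DESeq2 5.87% and 8.53%, and the marker panels 2.11% and 3.62%. The median over the 10 members was -0.06, beside -0.04 over all genes, with 5 members above and 5 below 0. In the 6-library fit the remaining 8 did not pass: Itga1 differed by -2.12 ± 0.75 (adjusted p = 0.229), Itga11 by 3.24 ± 1.60 (0.426), Itgb5 by 0.97 ± 0.20 (0.0574), Itgb1 by -0.72 ± 0.24 (0.189), Itga5 by 1.14 ± 0.83 (0.647), Itgav by 0.56 ± 0.36 (0.570), Itgb3 by 0.48 ± 0.72 (0.894) and Itga8 by -0.61 ± 0.64 (0.814). All 10 members passed the filter on low values.

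The spread in that fit was shared with the Mia/Scrg1-high libraries, whose Itga1 and Itga11 values differed between tumors as given above. A fit on the 4 Rgs5-high and Dcn-high libraries alone, chosen after the values were seen, called 5 members, 2 higher and 3 lower, beside 9.22% of genes higher, 6.4% lower and 15.6% in all. Itga7 and Itga4 were again lower. Itga1 was lower in Dcn-high cells at -2.12 ± 0.16 (edgeR, adjusted p = 0.00153), and Itga11 and Itgb5 were higher at 3.24 ± 0.26 (0.00175) and 0.96 ± 0.15 (0.0135). The tumor values were close, at -2.09 and -2.13 for Itga1, 3.56 and 2.99 for Itga11, and 0.95 and 1.00 for Itgb5.

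**Figure D4:**
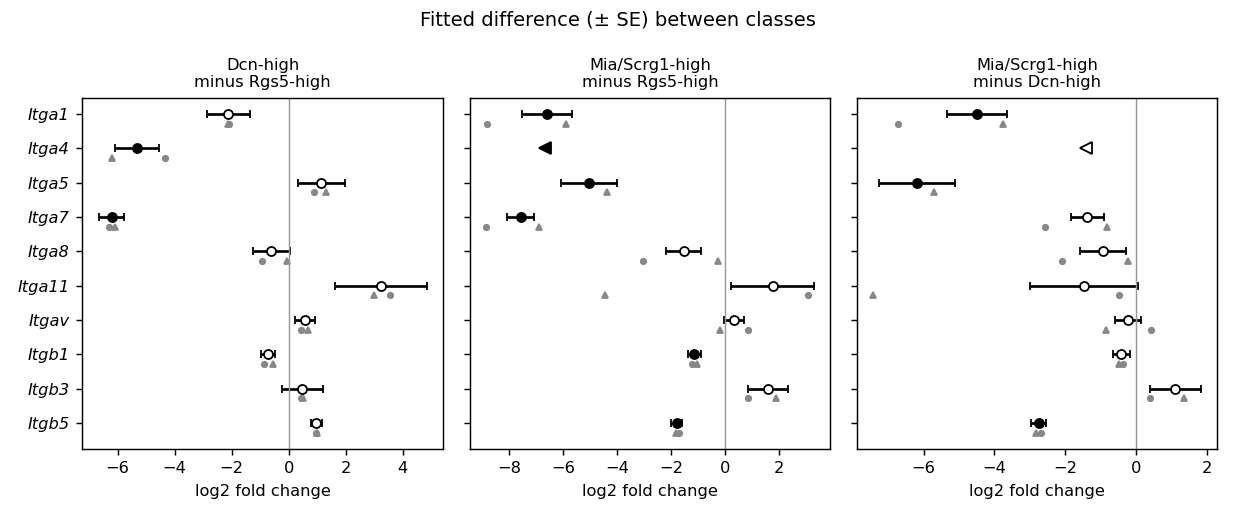
Fitted log2 fold change (edgeR, points with SE bars) of the 10 members in the 3 comparisons of classes, filled where the adjusted p was at or below 0.05, with tumor 1 (gray circles) and tumor 2 (gray triangles) below each. A left-pointing triangle is a bound counted in reads, not wells, for Itga4, which had 0 reads in Mia/Scrg1-high cells, and tumors with 0 reads are left out. Every filled point lies below 0, and the tumors lie on both sides of 0 for Itgav in both comparisons with the Mia/Scrg1-high class and for Itga11 in that with Rgs5-high cells.

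Between Mia/Scrg1-high and Rgs5-high cells, 6 of the 10 members were lower and none higher, beside 7.86% of all genes lower, 4.7% higher and 12.6% in all. The same 6 passed with the tumor as a block, beside 4.88% of genes lower, 3.28% higher and 8.16% in all. Itga7 was lower by -7.59 ± 0.51 (edgeR, adjusted p = 0.00166) and Itga1 by -6.61 ± 0.94 (0.0124), with tumor values of -8.82 and -5.89 for Itga1. Without the top well of each library, Itga7 was at -11.00 (0.00129) and Itga1 at -9.07 (0.000611). Itga5 was lower by -5.05 ± 1.04 (0.0351), at -4.39 in tumor 2 and with 0 reads in the Mia/Scrg1-high wells of tumor 1. Itga4, with no read in the 24 wells, was lower (0.0123), by at least 102-fold against a limit of 3 reads over both libraries. That limit takes reads as independent, while the Rgs5-high reads came from 126 of 504 wells, so it is not a bound over cells. The beta subunits moved less: Itgb5 was lower by -1.78 ± 0.20 (0.00683) and Itgb1 by -1.14 ± 0.24 (0.0368). Scaling by ERCC totals shifted the all-gene median of this comparison from -0.13 to 0.48, and Itga5 (adjusted p = 0.0759), Itgb5 (0.0510) and Itgb1 (0.28) no longer passed. In a fit of these 2 classes alone, also chosen after the values were seen, Itga5 (0.0987) and Itgb1 (0.0832), which a gate margin of 2 also lost, were not called and 4 members remained lower, beside 3.67% of genes lower, 2.61% higher and 6.28% in all. Relative to that median the difference was -1.04 for Itgb1 and -1.69 for Itgb5, beside -1.01 and -1.65 with the usual scaling. The median over the members was -1.66, also with Itga4 at its bound. The 4 members that did not pass were Itgb3 at 1.60 ± 0.73, Itga11 at 1.77 ± 1.53, Itgav at 0.34 ± 0.36 and Itga8 at -1.54 ± 0.66. Leaving out the wells with any epithelial read kept 1 and 3 Mia/Scrg1-high wells. In edgeR, Itga1 was then at -9.30 (adjusted p = 0.0169) and Itgb1 at -2.53 (0.0396), and both passed. Itga7 and Itga4, with no read in those wells, also passed (0.0396 each). Itgb5 at -0.38 and Itga5 at -3.75 did not.

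Between Mia/Scrg1-high and Dcn-high cells, 3 members were lower and none higher, beside 7.78% of all genes lower, 2.79% higher and 10.6% in all. Itgb5 was lower by -2.75 ± 0.21 (edgeR, adjusted p = 0.00296; 6.71-fold), with tumor values of -2.67 and -2.83. Itga5 was lower by -6.19 ± 1.08 (0.0260; 0.0505 with ERCC totals), at -5.71 in tumor 2. Itga1 was lower by -4.49 ± 0.85 (0.0327), with tumor values of -6.72 and -3.76, and this call was lost with the tumor as a block (adjusted p = 0.0506; 2 members called, beside 4.73% of genes lower, 1.5% higher and 6.23% in all), with ERCC totals (0.0673) and without the wells with an Epcam RPKM of at least 1. Itga1 passed in edgeR at -6.82 without the top well of each library (adjusted p = 0.00172) and at -7.20 without the wells with any epithelial read (0.0348). In a fit of these 2 classes alone, Itga1 (0.0946) and Itga5 (0.0821) were not called and Itgb5 was, beside 2.97% of genes lower, 0.993% higher and 3.96% in all. The median over the members was -1.42, or -1.39 with Itga4 at its bound, beside -0.13 over all genes. Itgb1 differed by -0.41 ± 0.24 (0.322) and Itgav by -0.22 ± 0.36 (0.739), and neither passed, while without the wells with any epithelial read Itgb1 was at -1.75 and passed (0.0412). Itga7 differed by -1.37 ± 0.46 (0.128). All 10 of its Mia/Scrg1-high reads in tumor 2 came from 1 well, and without the top well of each library it was at -4.01 and passed (0.0354), as it did at -4.60 without the Epcam wells (0.0313). Of the other members, Itga4 had no read in Mia/Scrg1-high cells and a read in 10 of 167 Dcn-high wells (0.0892, and 0.0350 in DESeq2). Its bound of 2.65-fold at 3 reads takes reads as independent and is not a bound over cells. Of its 31 Dcn-high reads in tumor 1, 19 came from 1 well. Itga8 differed by -0.93 ± 0.66 (0.422) and Itga11 by -1.47 ± 1.52 (0.592), and Itgb3 alone had a positive difference, at 1.12 ± 0.73 (0.381). The Mia/Scrg1-high class kept 1 and 3 wells without those with any epithelial read, and Itgb5 was then at -1.35 and Itga5 at -5.14, and neither passed. Itgb5 had a mean log2(RPKM + 1) of 6.07 in those 4 wells and of 3.21 in the 20 others. Against Rgs5-high cells, Itgb5 and Itga5 did not pass without the wells with any epithelial read either.

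Among the 16 other integrin subunits of the table, 4 passed the filter and were tested. Itga6, a laminin receptor subunit that pairs with Itgb1 or Itgb4 and is known from basal epithelium and Schwann cells, had a read in 24 of 24 Mia/Scrg1-high wells and stood at 634 and 519 CPM there, against 31.3 and 46.6 in Rgs5-high and 1.43 and 8.46 in Dcn-high cells. It was higher than in Rgs5-high cells by 3.89 ± 0.82 (edgeR, adjusted p = 0.0374; 0.0529 with the tumor as a block) and than in Dcn-high cells by 6.87 ± 0.95 (0.0135; 0.0283). These 2 calls of Itga6 were kept in 14 and 17 of 18 alternative settings, with an adjusted p of up to 0.293 and 0.0684. Itga3, another laminin receptor subunit, was higher than in Rgs5-high cells by 6.61 ± 0.84 (0.00919). Its difference from Dcn-high cells, 2.68 ± 0.70, did not pass (0.0715). Itgb4, the partner of Itga6 in hemidesmosomes, had a read in 16 of 24 Mia/Scrg1-high wells and in 6 of 504 and 10 of 167 of the others, but lay below the filter and was not tested. With all alpha subunits counted, Itga6 took 49.5% and 56.2% of the alpha RPKM of Mia/Scrg1-high cells, Itgav 26.2% and 15.6%, and Itga3 9.34% and 18.2%. In the 4 Mia/Scrg1-high wells with no epithelial read, Itga6 was found in 4, Itga3 in 3 and Itgb4 in 3. Itga6 had a mean log2(RPKM + 1) of 5.34 in those 4 wells and of 6.25 in the 20 others.

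**Figure D5:**
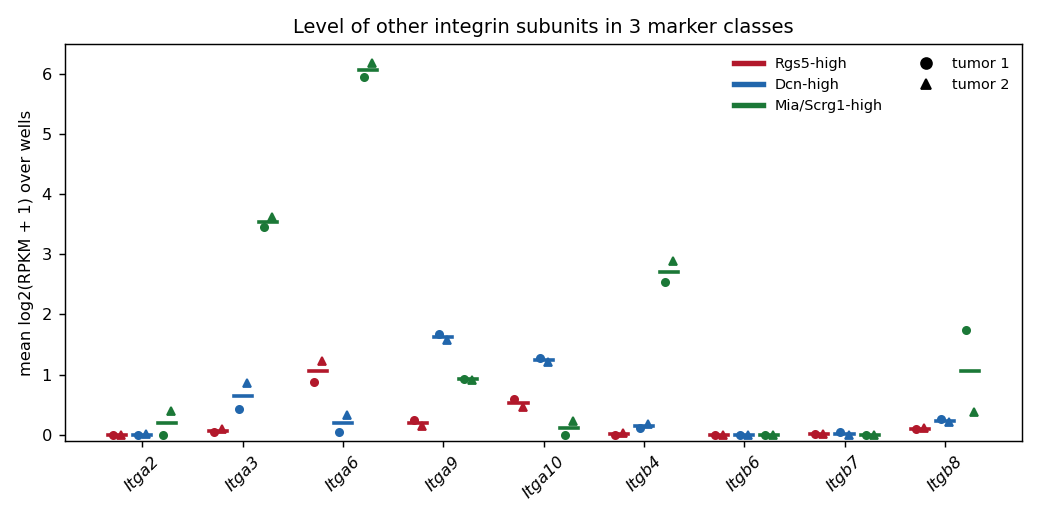
Mean log2(RPKM + 1) of 9 of the 16 other integrin subunits by class (color) in tumor 1 (circles) and tumor 2 (triangles), with the mean of both as a line. Itga6, Itga3 and Itgb4 stand highest in Mia/Scrg1-high wells, and Itga9 and Itga10 in Dcn-high wells, of both tumors.

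Itga9, a receptor subunit for tenascin-C, was higher in Dcn-high than in Rgs5-high cells by 2.79 ± 0.52 (edgeR, adjusted p = 0.0455; 0.102 with the tumor as a block), and Itga3 by 3.93 ± 0.74 (0.0462; 0.0654), from 1.02 and 1.39 to 7.36 and 29.4 CPM. Itga10, a further collagen receptor subunit, stood at 30.2 and 42.2 CPM in Dcn-high and 15.1 and 10.7 in Rgs5-high cells, and had 3 reads in the 24 Mia/Scrg1-high wells. Its difference between Mia/Scrg1-high and either other class passed the test (0.0366 and 0.0218), and neither call was kept with the tumor as a block (0.0788 and 0.0549). The leukocyte subunits Itgad and Itgax had no read in any well of the 3 classes, as did Itgb6, and Itgam had reads in 1 well. Itgal, another leukocyte subunit, had reads in 10 of 504 Rgs5-high wells (317 and 178 reads) and in 2 of 24 Mia/Scrg1-high wells (0 and 51 reads), and Itgae in 4 Rgs5-high wells. Itgb8 stood at 36.2 and 3.75 CPM in Mia/Scrg1-high cells and at or below 2.70 in the other libraries.

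With the tumor as a block, edgeR called 1.92% of all genes higher and 0.924% lower between Dcn-high and Rgs5-high, 3.28% and 4.88% between Mia/Scrg1-high and Rgs5-high, and 1.5% and 4.73% between Mia/Scrg1-high and Dcn-high cells. With ERCC totals these shares were 4.82% and 0.865%, 6.77% and 4.82%, and 1.39% and 5.85%. Of 27 matrix ligands of integrins in a list, 8 were higher and 2 lower in Dcn-high than in Rgs5-high cells (5 and 1 with the tumor as a block) and 17 did not pass, beside 3.43% of all genes higher and 1.87% lower. The median over the 27 was 1.63, beside -0.04 over all genes. Edil3, which binds Itgav, was higher by 8.64 ± 0.87 (edgeR, adjusted p = 0.00849), and Spp1, osteopontin, by 5.23 ± 0.92 (0.0390). Vtn, vitronectin, was lower by -6.36 ± 0.61 (0.00746), from 470 and 339.5 to 6.67 and 3.14 CPM. In Mia/Scrg1-high against Rgs5-high cells 6 were higher and 10 lower (3 and 10 with the block), beside 4.7% and 7.86% of all genes and with medians of -1.78 and -0.13, with Edil3 higher by 9.55 ± 0.90 and Vtn and Col3a1 lower by -9.20 ± 0.77 and -8.63 ± 0.43. Against Dcn-high cells 2 were higher and 9 lower (2 and 7), beside 2.79% and 7.78% of all genes and with medians of -2.22 and -0.13, led by Col1a1 at -10.60 ± 0.41, Col3a1 at -10.56 ± 0.46 and Fn1, fibronectin, at -9.92 ± 0.49. The collagens and fibronectin are ligands of the receptors formed with Itga1, Itga11 and Itga5.

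Of 25 adaptors and kinases of integrin adhesions, 22 were tested. In Dcn-high against Rgs5-high cells 0 were higher and 2 lower, beside 3.43% and 1.87% of all genes. They were Tns1 (tensin, -1.90 ± 0.22; edgeR, adjusted p = 0.0135) and Src (-1.46 ± 0.26; 0.0399), and Src was lost with the tumor as a block (0.0902) and both with ERCC totals (Tns1 0.1003, Src 0.334). In Mia/Scrg1-high against Rgs5-high cells 2 were higher and 9 lower, beside 4.7% and 7.86% of all genes, 0 and 7 with the block beside 3.28% and 4.88%, and 1 and 4 with ERCC totals beside 6.77% and 4.82%. Tns1 was lower by -4.77 ± 0.25 and Vcl, vinculin, by -3.17 ± 0.41 (0.0543 with ERCC totals), and Lims2 was at 0 and 0.268 CPM against 42.4 and 27.5. Against Dcn-high cells 2 were higher and 4 lower, beside 2.79% and 7.78% of all genes, 1 and 3 with the block beside 1.5% and 4.73%, and 0 and 2 with ERCC totals beside 1.39% and 5.85%. Among them were Tns1 at -2.87 ± 0.23, Parva, parvin, at -2.50 ± 0.23 and Lims2 at 4.92 and 20.8 CPM in the Dcn-high libraries. The call of Lims2 (0.0426) was lost with the block (0.0815) and with ERCC totals (0.0547). Of 5 membrane partners of integrins, edgeR called only Cd151, higher in Mia/Scrg1-high than in Dcn-high cells by 1.67 ± 0.29 (0.0259; 0.0569 with the block and 0.0552 with ERCC totals), beside 2.79% of all genes higher and 7.78% lower. DESeq2 called 2 of the 5 higher and 2 lower between Dcn-high and Rgs5-high cells, beside 8.53% and 5.87% of all genes. In Mia/Scrg1-high cells it called 1 higher than in Rgs5-high cells, beside 11% of all genes, and 2 higher than in Dcn-high cells, beside 9.8%. Between Dcn-high and Rgs5-high cells, edgeR called 1 higher with ERCC totals, beside 4.82% of all genes, and 1 higher and 2 lower in the fit of those 2 classes alone, beside 9.22% and 6.4%.

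The genes most like a member over the wells of the 3 classes were ranked, for the 8 members with a read in at least 50% of the wells of a class and so not for Itga4 and Itga8, by the lower of the r values of the 2 tumors, over 355 and 340 wells. These correlations share the library depth of the wells and the split into classes. For Itga1 they were Notch3 (r = 0.71 and 0.69), Mcam (0.69 and 0.68) and Rgs5 (0.68 and 0.68), and for Itga7 Rgs5 (0.80 and 0.72), Esam (0.72 and 0.73) and Gja4 (0.70 and 0.69). Rgs5 had itself defined the class. For Itga11 they were Fbln2 (0.66 and 0.62), Tpbg (0.59 and 0.58) and Loxl1 (0.59 and 0.57). Itgb1 was most like the actin cytoskeleton genes Tpm4 (0.53 and 0.49), Actb (0.48 and 0.47) and Acta2 (0.45 and 0.42), and Itgb5 most like Col1a2 (0.40 and 0.43), Bgn (0.40 and 0.47) and Col5a2 (0.38 and 0.40). The nearest genes to Itga5, Bcat1, Col5a1 and P4hb, did not exceed 0.34, nor did those of Itgav (Ssr3, Eef1b2 and F2r) and Itgb3 (Slc20a1, Synpo and Egr2).

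Within the Rgs5-high class, 37 wells had both Top2a and Birc5 at a log2(RPKM + 1) of at least 4 and were taken as cycling. Their Itga5 level was 3.46 and 2.52 in tumors 1 and 2, beside 1.99 and 2.51 in the other Rgs5-high wells, and their Itga7 level 5.13 and 4.63 beside 5.50 and 4.84. Itga4 had a read in 33.3% and 63.2% of cycling and 17.96% and 28.8% of other wells. The cycling wells were deeper, with a median of 287586 and 206947 reads beside 200112 and 190344, and no test was made over wells. In the wells outside the classes, Itgb1 remained the most abundant member among the 11 low wells of tumor 1 and the 13 of tumor 2, where its log2(RPKM + 1) averaged 6.57 and 4.63.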

How the data were processed

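Cells of 2 tumors had been sorted into 384-well plates and sequenced by Smart-seq2. The authors aligned the reads to mm10 with STAR and deposited read counts per gene and well, and RPKM values that they computed with rpkmforgenes on RefSeq genes. Comparison of both tables showed that the RPKM total includes the reads of the 92 ERCC spike-ins. The deposited counts carry neither strand nor molecular identifiers, so binomial intervals and zero limits (3 counts) cover counting error only. Each well was assigned to its tumor and plate by its label, and 0 columns of values were left unused for want of a label.

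Wells with at least 10000 non-ERCC reads were used, in which depth ran from 10281 to 1190516 reads. Counts were summed per marker class and tumor, and the 6 libraries were compared with the quasi-likelihood test of edgeR 4.0.16 (R 4.3.3) after TMM scaling, after genes averaging under 1 RPKM had been dropped, with Benjamini-Hochberg adjustment at 0.05 over 11683 genes in each of 3 comparisons. Levels are means of log2(RPKM + 1). DESeq2 1.42.0, other scalings, filters, gates and left-out wells were tried as alternatives. The fit on only the classes compared, endogenous RPKM, removal of the top well and removal of wells with any epithelial read were added after the data were seen. Python 3.11.15, numpy 2.4.6, scipy 1.17.1, pandas 2.3.3 and matplotlib 3.10.9 served for the other steps, and the tests were tried on simulated data first.

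Libraries of the same tumor come from the same animal and pair by that origin. Their deviations from the class means correlated at 0.153, 0.0654 and 0.0199 over 11683 genes for the 3 pairs of classes. The members and the gene lists were chosen with earlier results of these data known. All members were named, and of the other lists the genes with the largest change among those past the threshold were named, up to 3 for each list and comparison, and for the likeness to a member with a read in at least 50% of the wells of a class the 3 genes with the highest lower r.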

Additional observations from a re-analysis of the deposited data

Results flagged for a closer look

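Itga11 and Itgav were flagged because the tumors moved in opposite directions, a difference that was not tested. Between Mia/Scrg1-high and Rgs5-high cells, Itga11 differed by a log2 fold change of 3.08 in tumor 1 and -4.44 in tumor 2. In tumor 1, 152 of the 235 Itga11 reads of the Mia/Scrg1-high class came from 1 of 8 wells. Itgav differed by 0.87 and -0.18 in the same comparison, and by 0.43 and -0.84 between Mia/Scrg1-high and Dcn-high cells.

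Member reads were also found in wells that no comparison used. The 41 wells under the read minimum held 279 reads of the 10 members among 100255 non-ERCC reads, which equals 2783 CPM, and of the member reads 154 were from Itgb1, 65 from Itga1 and 28 from Itga7.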

How the results depend on the processing

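Of 540 log2 fold changes of the members under alternatives with a test, 502 kept their direction and their side of the threshold, 20 lost the call, 12 gained it and 6 changed direction. Of 60 values that left out a tumor and had no test, 51 moved by less than 1 SD between the tumors and 9 by more. That SD is set by the distance between the same tumors. Where the joint value lies midway, each tumor lies within 1 SD of it, however far apart the tumors are. The count of 51 therefore cannot show whether the values are stable. Of 270 levels under alternatives 79 moved by more than 1 SD, as did 11 of 30 shares of wells with a read on thinning to 50000 reads. Of the 79 levels, 27 moved under the log2 of the mean RPKM and 25 under a pseudocount of 0.1, which change the scale itself. None of the 6 changes of direction was called: Itga8 between Dcn-high and Rgs5-high cells with ERCC totals (0.0727), Itga8 against Rgs5-high (0.33) and against Dcn-high cells (0.93) in Mia/Scrg1-high cells set by marker panels, and against Dcn-high cells with a gate minimum of 4 (0.25), Itgav against Rgs5-high cells without the top well (-0.0235), and Itgav against Dcn-high cells without wells with an epithelial read (0.0946). The cause was not tested.

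The numbers of genes called were 619, 1467 and 1235 in the order of comparisons in the report. With the tumor as a replicate block they were 332, 953 and 728, and members called went from 2 to 1 in the first comparison. With only the classes compared they were 1825, 734 and 463, with 5 members in the first and 1 in the last comparison. DESeq2 called 1682, 3109 and 2952 genes, and 4 members in the first comparison. At an adjusted p of 0.001 edgeR called 0, 39 and 0 genes and 0 members. At an unadjusted p under 0.05 there were 1977, 3332 and 3216 genes and 5, 6 and 5 members. Without wells with an epithelial read edgeR called 0 genes and 0 members in the first comparison, and 1087 genes and 4 members at an unadjusted p under 0.05. With ERCC totals 664, 1354 and 845 genes were called, and 3 and 1 members in the comparisons with Mia/Scrg1-high cells. Leaving out either tumor leaves no residual spread, so it gave values with no test.

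The share of Itga1 in Rgs5-high cells (55.8%) was 54.0% over all alpha subunits and 54.0% as a mean over wells, and that in Dcn-high cells (27.0%) was 23.5% and 23.8%. The share of Itgav in Mia/Scrg1-high cells (68.1%) was 20.9% over all alpha subunits, 72.1% as a mean over wells, 63.3% and 75.3% with a gate minimum of 4 and 8, 64.2% with a margin of 2, and 57.3% with marker panels. That class rests on 24 wells, which limits every value on it.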
